A study of Cicer arietinum with 8 samples.

Results

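The loci described here were transcribed stretches of the chickpea (Cicer arietinum) genome to which the deposited table gave no gene identifier. A locus entered when its identifier field was empty and its level reached an FPKM of at least 1 in at least 1 of 4 conditions. FPKM scales the sequenced fragments to transcript length and library size, so levels can be compared between loci of different length. Of 30978 loci in the table, 3097 had no identifier and 3077 of these met the rule. They made up 14.8% of the 20745 loci that reached the same level.

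RNA was sequenced from roots of seedlings of 2 genotypes grown in a growth chamber. DT was ICC4958, which the labels call drought-tolerant, and DS was ICC1882, which they call drought-sensitive. DT(D) and DS(D) were plants from which water was withheld for 11 days from an age of 16 days, and DT(C) and DS(C) were control plants of the same genotypes watered on alternate days. All roots were harvested at an age of 27 days according to the labels, while the study's methods give a different start and length of the stress. Each condition had 2 libraries, 8 in all, but the table holds 1 FPKM value for each condition. No difference below therefore has a replicate check, no test could be made from it, and a ratio describes these 4 pooled values only. The number of reads behind a value was not recovered, because the table gives neither counts nor locus lengths. A lower level cannot be told apart from fewer cells of a type that expresses the locus. The table pairs its identifiers with no gene names, so the roots could not be checked against root marker genes.

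When reads are assembled on a reference genome, stretches that overlap a gene model take over its identifier, and those that overlap none are given only a locus number. Such loci can be genes missed by the annotation, long noncoding RNAs, transcripts of transposable elements, antisense transcripts, or parts of a neighbouring gene such as an untranslated end. Plant long noncoding RNAs and transposable elements are known for low levels and for expression that is confined to particular tissues, stresses or strains. The table gives a number such as XLOC_020264 and no position, so none of these classes was assigned and no sequence can be shown.

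Loci without an identifier were present at lower levels than loci with one. Their median FPKM was 5.14 in DT(D), 5.77 in DT(C), 5.78 in DS(D) and 5.41 in DS(C). The 17668 expressed loci with an identifier had medians of 15.9, 16.6, 15.2 and 14.7 FPKM in the same order of conditions. The means over the 4 conditions had a median of 5.78 FPKM without an identifier and 16.1 FPKM with one. FPKM of at least 1 was reached in all 4 conditions by 2256 loci without an identifier (73.3%) and by 16006 with one (90.6%). The 2 sets entered the table differently. A locus without an identifier was listed only if the assembly built it from these reads, whereas annotated loci were listed whether or not reads fell on them, and 6815 of the 27881 with an identifier were at 0 in every condition.

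**Figure D1:**
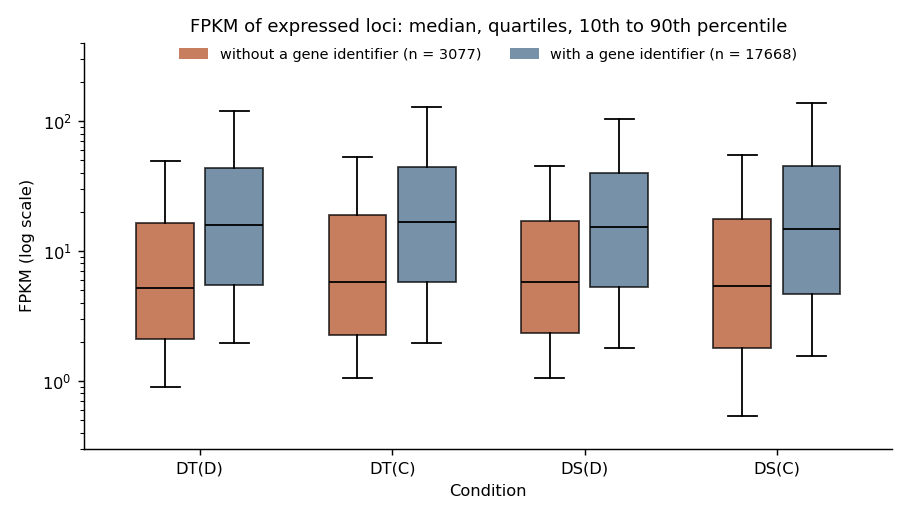
FPKM on a log axis in each condition for expressed loci without a gene identifier (left box of each pair, n = 3077) and with one (right box, n = 17668). Lines are medians, boxes quartiles and whiskers the 10th and 90th percentiles over loci, and the medians without an identifier lie between 5.14 and 5.78 FPKM, under those with one, which lie between 14.7 and 16.6 FPKM.

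The threshold of the rule cut through few loci. XLOC_016053 was the lowest locus inside it, with 0.963, 1.00, 0.950 and 0.117 FPKM in DT(D), DT(C), DS(D) and DS(C). XLOC_030570 had 1.03, 0.916, 0.957 and 0.612 FPKM and XLOC_023765 had 1.03, 0.139, 0.852 and 0 FPKM in these conditions. Just outside were XLOC_023692, XLOC_014960 and XLOC_023711, whose highest values were 0.982, 0.913 and 0.906 FPKM. In all, 20 loci without an identifier stayed under the threshold, 1 of them at 0 throughout.

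A few loci without an identifier were among the most abundant transcripts in the table. They held 7.12% of the summed FPKM of all loci in DT(D), 8.29% in DT(C), 7.80% in DS(D) and 7.81% in DS(C). The 10 with the highest means held 29.9%, 32.0%, 27.9% and 39.1% of that part in the same conditions. By mean level they supplied 2 of the 10 highest loci, 5 of the 100 highest (5.0%) and 60 of the 1000 highest (6.0%). The shares of the 100 and the 1000 highest lay under their share of all expressed loci, 14.8%.

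XLOC_020264 was the highest, with 12142 FPKM in DT(D), 10740 in DT(C), 13981 in DS(D) and 19081 in DS(C). Its DS(C) value stood above the other conditions, but no ratio of XLOC_020264 reached a factor of 2. XLOC_028145 followed with 6501, 6182, 5651 and 16148 FPKM in the same conditions, so that DS(C) lay well above the others, which were close to each other (log2 DS(D/C) −1.51, log2 DT(C)/DS(C) −1.39). XLOC_020139 had 1048 FPKM in DT(D), 8311 in DT(C), 1006 in DS(D) and 4493 in DS(C), and was lower under drought in both genotypes, with log2 ratios of −2.99 in DT and −2.16 in DS. XLOC_020361 had the same order, with 897, 2346, 331 and 1478 FPKM and log2 ratios of −1.39 in DT and −2.16 in DS.

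Other loci of this abundant group differed less between drought and control in DT than in DS. XLOC_029176 had 563, 1016, 1039 and 2518 FPKM in DT(D), DT(C), DS(D) and DS(C). XLOC_019948 had 934, 1364, 331 and 1552 FPKM, with DS(D) the lowest (log2 DS(D/C) −2.23). By contrast XLOC_000552 stayed between 1587 and 2126 FPKM, XLOC_022280 between 1234 and 1967 FPKM and XLOC_001196 between 989 and 1338 FPKM over the 4 conditions. The tenth, XLOC_016100, differed between the genotypes and is described with them.

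Some loci without an identifier kept 1 level throughout. Of those at 10 FPKM or more in every condition, XLOC_021280 varied least, with 71.9 FPKM in DT(D), 72.9 in DT(C), 72.9 in DS(D) and 71.3 in DS(C). XLOC_011497 lay between 17.0 and 17.5 FPKM and XLOC_024320 between 19.8 and 20.8 FPKM. They were the exception. The difference between the highest and lowest condition on the log2(FPKM + 1) scale had a median of 1.03 without an identifier and 0.63 with one, and it was at least 1 in 1586 loci (51.5%) without an identifier and 4045 (22.9%) with one.

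For each of 4 comparisons the log2 ratio of FPKM was taken over loci at FPKM 1 or more in at least 1 of the conditions compared, and a locus was called higher at a log2 ratio of 1 or more, or lower at −1 or less. Loci at 0 in only 1 of the conditions were counted in the direction of the other. This is a threshold on size without a test. Of the 3077 loci without an identifier 1810 (58.8%) passed it in at least 1 comparison, against 4931 (27.9%) of loci with one, and 80 (2.60%) against 115 (0.651%) passed it in all 4. Scaling the columns to the same sum would move every log2 ratio by 0.028 for DT(D/C), 0.47 for DS(D/C), 0.27 for DT(C)/DS(C) as well as −0.17 for DT(D)/DS(D).

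The first question was how drought changed these loci in the tolerant genotype. In DT(D/C), 288 of 2941 loci without an identifier were higher (9.79%) and 466 lower (15.8%), where 5.03% of all loci compared were higher and 8.88% lower. Of 17385 loci with an identifier 735 were higher (4.23%) and 1338 lower (7.70%). Lower calls outnumbered higher ones in both sets. The median log2 ratios were close to 0, −0.025 without an identifier (quartiles −0.51 and 0.40) and 0.028 with one.

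Single loci are ranked by ratio only among those at FPKM 1 or more in both conditions and 10 or more in the higher, and loci with a value under 1 can have larger ratios. Within these limits the largest decreases in DT reached a log2 ratio of −4.94. XLOC_003498 had 1.85 FPKM in DT(D), 56.8 in DT(C), 1.08 in DS(D) and 23.1 in DS(C), with log2 ratios of −4.94 in DT and −4.43 in DS. XLOC_003488, with 12.2, 279, 9.52 and 133 FPKM, had ratios of −4.52 in DT and −3.80 in DS. Both were therefore low in both drought conditions, and their numbers belong to the same run of consecutive loci without an identifier. XLOC_027355 had 4.995 FPKM in DT(D), 115 in DT(C), 14.6 in DS(D) and 17.2 in DS(C), so that only DT(C) was high.

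The largest increases in DT within these limits were smaller. XLOC_021341 had 23.8 FPKM in DT(D), 1.55 in DT(C), 5.72 in DS(D) and 1.25 in DS(C), and was higher under drought in both genotypes (log2 3.94 in DT, 2.20 in DS). XLOC_008874, with 16.9, 1.51, 7.64 and 2.79 FPKM, was also higher in both (log2 3.48 in DT, 1.45 in DS). XLOC_016104 had 18.6, 1.48, 5.96 and 5.47 FPKM, with DT(D) alone above the rest. Among loci at 0 in 1 DT condition, XLOC_005900 had 7.41 FPKM in DT(D) and 0 in DT(C), while XLOC_005906 had 0 in DT(D) and 16.8 FPKM in DT(C), and XLOC_030934 had 0 in DT(D) and 13.9 FPKM in DT(C).

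In the sensitive genotype the balance was turned. In DS(D/C), 596 of 2902 loci without an identifier were higher (20.5%) and 408 lower (14.1%), where 8.21% of all loci compared were higher and 8.66% lower. Of 17191 loci with an identifier 1054 were higher (6.13%) and 1333 lower (7.75%). The median log2 ratio was 0.055 without an identifier and −0.011 with one. Over all levels, higher calls thus outnumbered lower ones without an identifier and not with one. Within bands of mean FPKM the balance had the same direction in both sets. From 5 to 20 FPKM, 140 were higher and 110 lower without an identifier, and 302 higher and 290 lower with one. From 20 to 100 FPKM, 45 were higher and 61 lower without an identifier, and 96 higher and 360 lower with one. The balance over all levels thus depended on level, and also on scaling. Among loci that reached FPKM 10 in DS(D) or DS(C), 145 of 1235 without an identifier were higher and 176 lower. In either direction these were 26.0%, against 10.8% with one. With columns scaled to the same sum 945 of 2902 were higher and 244 lower, in either direction 41.0% against 22.1% with one. This scaling shifts every locus alike, and it moved the median log2 ratio with an identifier to 0.45.

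Within the same limits of level XLOC_029690 had the largest increase in DS, with 261 FPKM in DT(D), 212 in DT(C), 488 in DS(D) and 24.4 in DS(C) (log2 DS(D/C) 4.32). The 3 other conditions lay above DS(C), and the DT log2 ratio was 0.30. XLOC_023655 had 14.2, 14.4, 38.1 and 2.89 FPKM, and XLOC_005488 had 11.1, 14.0, 23.3 and 1.93 FPKM, again with DS(C) the lowest. XLOC_003468, at 28.1, 40.8, 68.3 and 0 FPKM, was listed at 0 in DS(C) alone. A low DS(C) value relative to DS(D) follows from how these loci were picked and is no separate result. In each of them both DT values also lay above DS(C).

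The largest decreases in DS within these limits had their highest value in DS(C) or in both controls. XLOC_025336 had 1.88 FPKM in DT(D), 15.7 in DT(C), 1.99 in DS(D) and 84.4 in DS(C), with log2 ratios of −3.06 in DT and −5.41 in DS. XLOC_018021 had 11.4, 17.2, 2.72 and 67.0 FPKM (log2 −0.59 in DT, −4.62 in DS). Among loci at 0 in DS(D), XLOC_015420 had 0.342, 1.08, 0 and 21.5 FPKM, so that it was close to or at 0 outside DS(C).

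Drought ratios past the threshold in both genotypes more often agreed in direction than not. The DT and DS ratios share no library. Of 2766 loci without an identifier compared in both, 81 were higher in both (2.93%, against 1.14% of all loci) and 182 lower in both (6.58%, against 3.92%). With an identifier, 143 of 16908 were higher in both (0.846%) and 589 lower in both (3.48%). Opposite calls were fewer: 24 loci were higher in DT and lower in DS (0.868%, against 0.335% of all loci), and 57 lower in DT and higher in DS (2.06%, against 0.529%). With an identifier these were 42 (0.248%) and 47 (0.278%).

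Over loci, the log2(FPKM + 1) differences in DT and DS correlated weakly, with r = 0.31 over 3077 loci without an identifier and r = 0.39 over 17668 with one. The points of each set share the same 4 pooled values for their columns, so they are no replicates. The DT minus DS difference of drought log2 ratios had a median of −0.11 without an identifier and 0.036 with one. It was −1 or less in 611 loci without an identifier (22.6%) and 1611 with one (9.57%), and 1 or more in 343 (12.7%) and 1262 (7.499%).

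**Figure D2:**
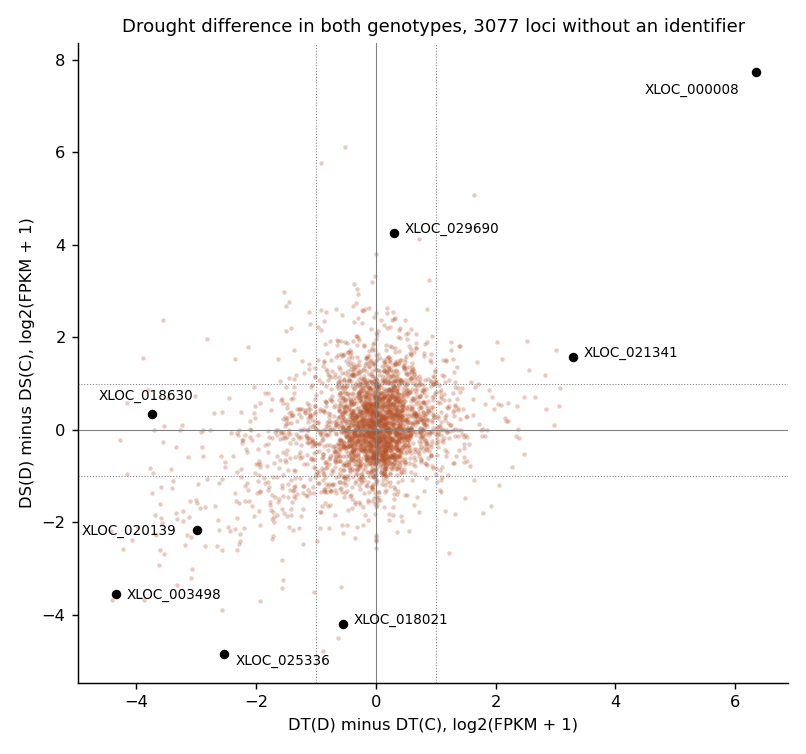
Difference between drought and control on the log2(FPKM + 1) scale in DT (horizontal axis) and DS (vertical axis) for 3077 loci without a gene identifier, each point being 1 locus. Dotted lines mark 1 and −1, and black points carry their locus number. XLOC_000008 lies alone at the upper right and XLOC_003498 and XLOC_020139 at the lower left.

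XLOC_000008 was seen only under drought. It had 80.5 FPKM in DT(D), 0 in DT(C), 213 in DS(D) and 0 in DS(C), and both drought values lay far above those of the next loci with this pattern. Only 3 loci without an identifier (0.0975%) were at 0 in both controls and above 0 in both drought conditions, and 4 (0.130%) had the reverse pattern. XLOC_030521, with 4.85, 0, 1.45 and 0 FPKM, and XLOC_027482, with 0.156, 0, 1.98 and 0 FPKM, completed the drought-only group. XLOC_006032 had 0 in DT(D), 10.9 FPKM in DT(C), 0 in DS(D) and 3.04 FPKM in DS(C), and XLOC_023604 and XLOC_027799 were likewise at 0 in both drought conditions, with control values between 4.96 and 13.9 FPKM. With an identifier, 14 (0.0792%) and 10 loci (0.0566%) had these patterns.

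Differences between the genotypes were asked first in watered plants. In DT(C)/DS(C), 682 of 2945 loci without an identifier were higher in DT (23.2%) and 367 lower (12.5%), where 11.1% of all loci compared were higher and 5.17% lower. With an identifier 1562 of 17286 were higher (9.04%) and 678 lower (3.92%). The median log2 ratios were 0.077 and 0.091, so the medians lay close while the shares past the threshold did not. DS(C) enters both DS(D/C) and this comparison, so the higher calls in them are not separate results. With columns scaled to the same sum, 860 loci without an identifier were higher and 277 lower.

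Under drought the calls without an identifier leaned the other way. In DT(D)/DS(D), 346 of 2955 were higher in DT (11.7%) and 433 lower (14.7%), where 6.73% of all loci compared were higher, 5.09% lower and 11.8% either. Of 17355 with an identifier 1021 were higher (5.88%) and 600 lower (3.46%). Higher calls were 44.4% of those past the threshold without an identifier and 63.0% of those with one, and the median log2 ratios were −0.022 and 0.11.

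XLOC_016100 had the largest ratio in favour of DT in both treatments within the same limits of level. It had 2129 FPKM in DT(D), 2551 in DT(C), 24.0 in DS(D) and 74.5 in DS(C). The log2 ratio of DT over DS was 5.10 in control and 6.47 under drought, and the lowest DT value was many times the highest DS value. XLOC_021870, with 164, 124, 12.9 and 11.6 FPKM, had the same direction in both treatments (log2 3.43 in control, 3.67 under drought). XLOC_016189 had 16.0, 8.50, 1.24 and 2.75 FPKM (log2 3.69 under drought).

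Other loci passed the threshold in favour of DT under control only. XLOC_012700 had 16.0, 32.2, 8.43 and 2.32 FPKM in DT(D), DT(C), DS(D) and DS(C), with a log2 ratio of 3.80 in control and 0.92 under drought. XLOC_006002 had 3.09, 15.8, 3.18 and 1.21 FPKM (log2 3.71 in control, −0.043 under drought). XLOC_028397, with 30.2, 58.1, 53.4 and 0 FPKM, was listed at 0 in DS(C) alone.

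The reverse pattern, with high values in DS, was carried by XLOC_003473, which had 0 FPKM in DT(D), 1.76 in DT(C), 134 in DS(D) and 303 in DS(C) (log2 DT(C)/DS(C) −7.43). XLOC_027328 had 1.27, 1.22, 18.1 and 28.9 FPKM, with both DT values far under both DS values. XLOC_010413 had 3.63, 1.09, 8.77 and 32.0 FPKM (log2 −4.88 in control, −1.27 under drought). Under drought the lowest ratios had unlike patterns. XLOC_018630, with 2.88, 50.6, 72.3 and 57.1 FPKM, and XLOC_030393, with 1.59, 29.1, 37.6 and 35.2 FPKM, were low in DT(D) alone. XLOC_030190 had 1.69, 6.62, 40.1 and 5.39 FPKM, so that DS(D) alone was high.

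Genotype calls without an identifier repeated across treatments in near equal numbers. Of 2823 loci compared in both treatments 155 were higher in DT in both (5.49%, against 1.97% of all loci) and 156 lower in both (5.53%, against 1.52%). With an identifier 235 of 16973 were higher in both (1.38%) and 144 lower in both (0.848%). Another 74 were higher in DT(C) and lower in DT(D) (2.62%, against 0.667%), and 28 the reverse (0.992%, against 0.354%). The control and drought ratios share no library.

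Some of these loci were listed at 0 in 1 genotype whatever the treatment. Without an identifier 226 loci (7.34%) were at 0 in at least 1 condition, against 288 (1.63%) with one. Both DT conditions were at 0 and both DS conditions above 0 in 32 loci (1.04%), against 13 (0.0736%) with an identifier, and both DS conditions were at 0 and both DT conditions above 0 in 35 (1.14%), against 25 (0.141%). A value of 0 in this table is a level listed at 0 and sets no upper limit, since the table gives no depth.

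XLOC_008865 had 132 FPKM in DT(D) and 104 in DT(C), and 0 in DS(D) and DS(C). XLOC_028511, with 21.3 FPKM in DT(D) and 36.9 in DT(C), and XLOC_028512, with 24.3 and 27.8 FPKM, were also at 0 in both DS conditions, and their numbers are adjacent. XLOC_025342 had 0 in DT(D) and DT(C), 54.8 FPKM in DS(D) and 57.0 in DS(C). XLOC_028666 was likewise at 0 in DT and had 92.3 FPKM in DS(D) and 46.0 in DS(C), XLOC_026745 had 56.2 and 37.4 FPKM, and XLOC_016034 had 13.2 and 69.5 FPKM. None of these loci came near the threshold of the rule, and within the genotype where each was seen both treatments were above 10 FPKM.

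**Figure D3:**
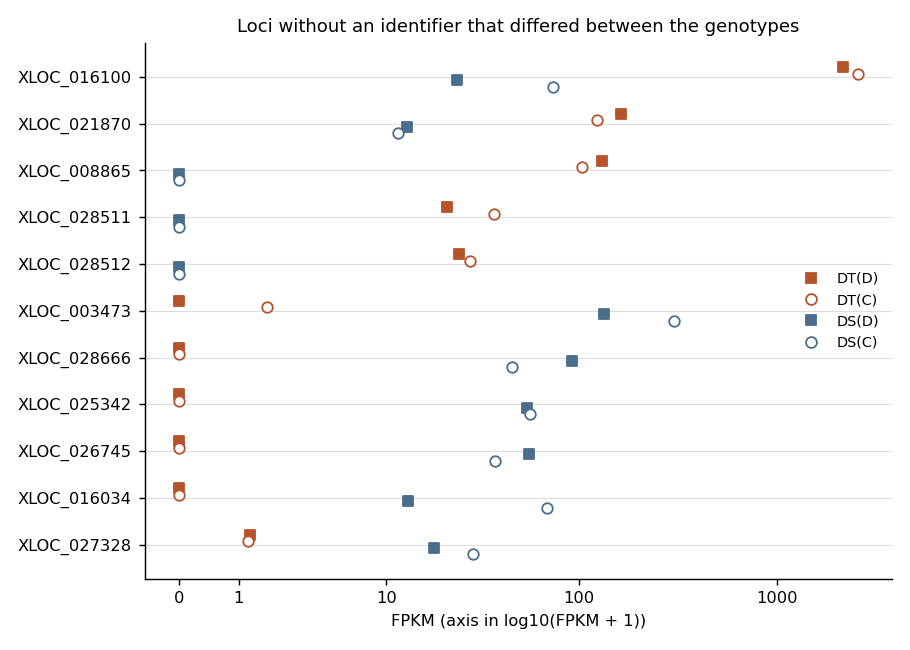
FPKM in DT(D), DT(C), DS(D) and DS(C) of 11 named loci without a gene identifier chosen for their genotype difference, on an axis in log10(FPKM + 1). The upper 5 loci have higher values in DT (XLOC_016100 at 2129 and 2551 against 24.0 and 74.5 FPKM) and the lower 6 in DS, with 0 in both conditions of a genotype for 7 of the 11.

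A single condition could also stand out. DS(C) gave the lowest value of 996 loci without an identifier (32.4%), close to its share of 34.3% among loci with one. DT(D) was lowest in 24.2% without an identifier against 16.3% with one, and DS(D) in 23.5% against 29.7%. At least 1 on the log2(FPKM + 1) scale under every other condition were 124 loci in DS(C) (4.03%, against 0.758% with an identifier), 58 in DT(D) (1.88%, against 0.787%), 37 in DS(D) (1.20%, against 0.979%) and 28 in DT(C) (0.910%, against 0.385%). At least 1 above every other condition were 138 loci in DT(C) (4.48%, against 1.92%), 82 in DS(D) (2.66%, against 0.260%), 66 in DS(C) (2.14%, against 0.798%) and 47 in DT(D) (1.53%, against 0.543%). At 0 in a single condition were 61 loci in DS(C) (1.98%, against 0.260% with an identifier), 32 in DT(D) (1.04%, against 0.125%), 26 in DS(D) (0.845%, against 0.232%) and 21 in DT(C) (0.682%, against 0.164%).

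Because ratios of low values spread more, the sets were set side by side within bands of mean FPKM over the 4 conditions (under 2, 2 to 5, 5 to 20, 20 to 100, and 100 or more). In each of the 20 pairings of band and comparison a larger share of loci without an identifier passed the threshold, in either direction, by a factor between 1.49 and 3.06. The bands match FPKM and not the number of reads, because counts and locus lengths were not given. The sets also entered the table differently, as described above. Whether either of these bears on the factor was not tested. From 5 to 20 FPKM, the shares without and with an identifier were 20.7% against 8.78% for DT(D/C), 26.4% against 10.2% for DS(D/C), 27.2% against 10.8% for DT(C)/DS(C) as well as 20.6% against 7.38% for DT(D)/DS(D).

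At a mean of 100 FPKM or more the 150 loci without an identifier still passed more often, with 21.3% against 12.5% for DT(D/C), 32.7% against 17.2% for DS(D/C), 19.3% against 6.31% for DT(C)/DS(C) as well as 14.0% against 5.27% for DT(D)/DS(D). The direction changed with level. In DS(D/C), 47.7% of loci without an identifier under 2 FPKM were higher, against 24.6% with one. At 100 FPKM or more 4.67% were higher and 28.0% lower without an identifier, against 0.612% and 16.6% with one.

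**Figure D4:**
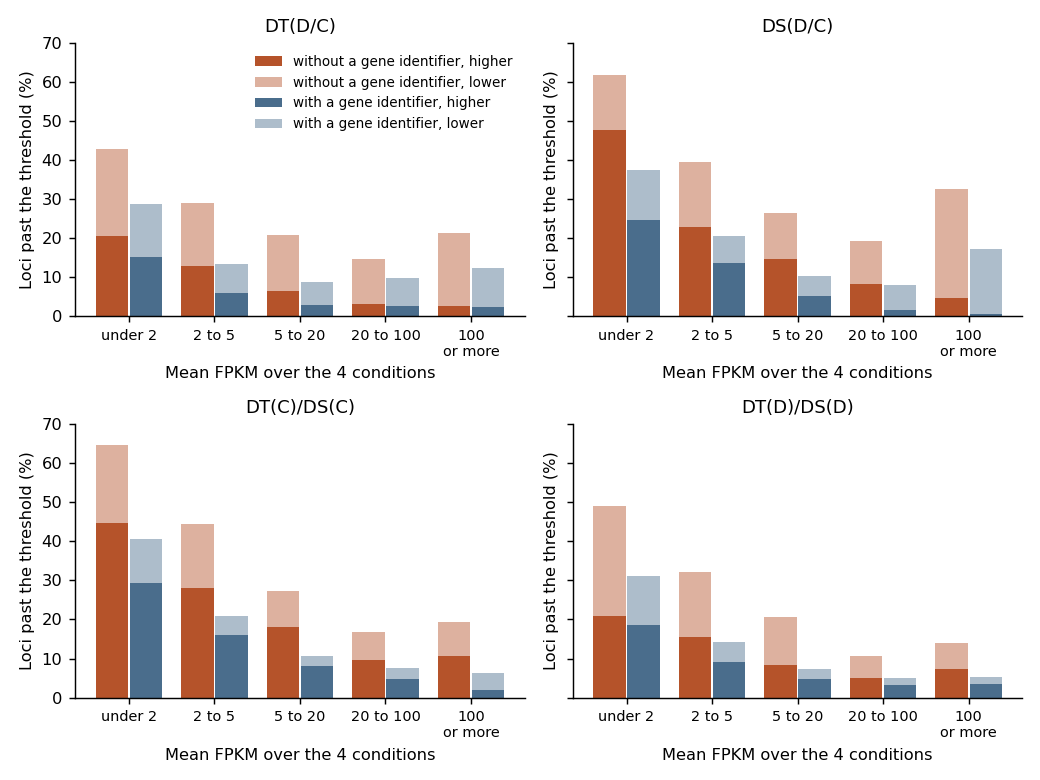
Percent of loci past the threshold (log2 ratio of 1 or more, dark, or −1 or less, light) in 5 bands of mean FPKM and 4 comparisons, for loci without a gene identifier (left bar) and with one (right bar). The left bar is the taller in all 20 pairs, as at 5 to 20 FPKM in DS(D/C) with 26.4% against 10.2%.

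Loci without an identifier were not spread evenly over the locus numbers, which mostly followed the order of the annotated identifiers (in 80.4% of neighbouring loci that each carry a single identifier the identifiers differed by at most 3). Single loci between identified ones numbered 944, another 585 lay in 193 runs of 2 to 15, and 1548 (50.3%) in 15 runs of 16 or more consecutive numbers without an identifier. Their median mean levels were 7.72, 6.41 and 4.47 FPKM from single loci to long runs. The share past the threshold in these classes was 17.5%, 21.5% and 32.3% for DT(D/C), 24.4%, 33.7% and 41.3% for DS(D/C), 25.5%, 34.8% and 42.3% for DT(C)/DS(C) as well as 19.8%, 28.1% and 29.8% for DT(D)/DS(D). Single loci alone also passed more often than loci with an identifier, whose shares were 11.9%, 13.9%, 13.0% and 9.34%. The classes were not matched for level, and loci with an identifier had a median mean level of 16.1 FPKM.

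The longest run went from XLOC_020138 to XLOC_020373, 236 loci of which 234 were expressed, with a median mean level of 4.56 FPKM and 9 loci at a mean of 100 FPKM or more. It held XLOC_020264, XLOC_020139 and XLOC_020361, 3 of the 10 most abundant loci. Under drought 27 of 215 of its loci were higher and 42 lower in DT, against 48 higher and 42 lower of 219 in DS. The next, from XLOC_016015 to XLOC_016212, had 198 loci of which 196 were expressed and held XLOC_016100. There 20 of 185 were higher and 37 lower under drought in DT, while in DS 62 of 184 were higher and 27 lower. The runs thus held loci of both directions and of very unequal level.

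By level the long runs fell into separate sets, a division made after their values were seen. In 10 of the 15 runs, which held 1391 loci, the median of the mean level lay between 3.09 and 4.62 FPKM, and between 39.7% and 52.2% of loci passed the threshold in DT(C)/DS(C). In the other 5, which held 157 loci, it lay between 8.52 and 20.98 FPKM, and between 4.76% and 23.5% passed. These 5 runs were of 57, 46, 21, 17 and 16 loci.

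**Figure D5:**
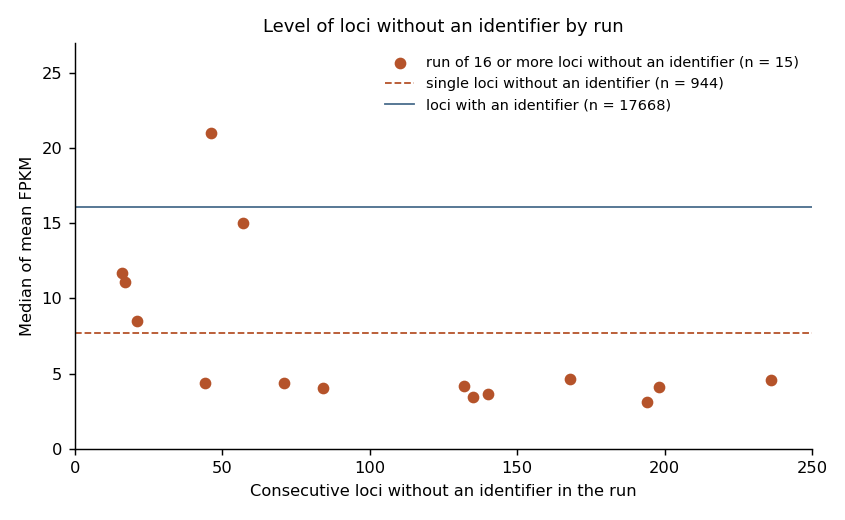
Median of the mean FPKM of expressed loci in each of 15 runs of 16 or more consecutive locus numbers without an identifier, against the number of loci in the run. Lines give the median for single loci without an identifier (dashed, 7.72 FPKM) and for loci with one (solid, 16.1 FPKM), and 10 runs lie between 3.09 and 4.62 FPKM while 5 runs of at most 57 loci lie higher.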

How the data were processed

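Total RNA of chickpea roots was sequenced as single-end reads on an Illumina platform, with 2 libraries in each of 4 conditions. According to the study's methods the authors used NGS QC Toolkit to filter reads, aligned these with TopHat2 2.1.1 against the genome of kabuli chickpea, assembled transcripts on the reference with Cufflinks 2.2.1, merged the assemblies and computed levels with Cuffdiff 2.2.1. The strand setting is not given in the sources used here. The deposited table holds FPKM, 1 value per condition pooled by the authors over its libraries, so it gives neither depth nor errors per library. Ratios were computed without a pseudocount (Python 3.11.15, pandas 2.3.3, numpy 2.4.6), with FPKM of at least 1 in a compared condition, and the script was tested on simulated data. No statistical test could be made from 1 value per condition.

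Named loci are the 10 with the highest mean. In each comparison they also include the 3 highest and 3 lowest log2 ratios at FPKM 1 or more on both sides and 10 or more on the higher, and the 2 highest values opposite a 0 in each direction. They further include, for each genotype and treatment, the 3 loci at 0 in both its conditions with the highest lower value in the others. The 3 largest and 3 smallest differences between the drought ratios needed FPKM 1 or more throughout and 10 or more in the highest condition. The 3 with the smallest range, the 2 longest runs, and 3 loci on each side of the FPKM threshold complete the list. Members, lists and bands were chosen with earlier results of these data known. None of the 28269 identifiers was found in a RefSeq gene table of another assembly, so no gene names are given. Alternatives were other pseudocounts, filters, scalings and thresholds.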

Additional observations from a re-analysis of the deposited data

Results flagged for a closer look

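The drought ratios of some loci without an identifier went in opposite directions in the genotypes, and these differences were not tested because each condition has 1 pooled value. Past the threshold under drought, 24 loci were higher in DT but lower in DS (0.868%, against 0.335% of all loci). The opposite was found in 57 loci (2.06%, against 0.529% of all loci).

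XLOC_016117 had 10.9 FPKM in DT(D), 1.15 in DT(C), 1.91 in DS(D) and 3.20 in DS(C), and its drought log2 ratio was 3.99 higher in DT than in DS. For XLOC_000080, with 18.7, 4.20, 5.48 and 19.3 FPKM in the same conditions, the difference was 3.97. In XLOC_009012, with 7.68 FPKM in DT(D), 22.8 in DT(C), 17.9 in DS(D) and 1.80 in DS(C), the DT minus DS difference was −4.89. XLOC_030190 had 1.69, 6.62, 40.1 and 5.39 FPKM and a difference of −4.87, and XLOC_027041 had 1.49, 6.07, 13.5 and 2.303 FPKM and a difference of −4.58. In these loci 1 condition or 1 pair of conditions carried the high values.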

How the results depend on the processing

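No paired analysis was possible because the table holds 1 pooled value per condition, and for the same reason no library could be left out. When both conditions had to reach FPKM 1, 474 loci without an identifier passed the threshold for DT(D/C), 614 for DS(D/C), 578 for DT(C)/DS(C) as well as 425 for DT(D)/DS(D), against 754, 1004, 1049 and 779. With FPKM of at least 10 in 1 condition these counts were 268, 321, 303 and 218, and at a log2 ratio of 2 they were 299, 389, 459 and 329. The FPKM filters also left fewer loci to compare. With both conditions at FPKM 1 the shares were 18.4%, 24.9%, 23.8% and 16.6%, against 9.57%, 10.9%, 9.77% and 6.47% with an identifier. With FPKM of at least 10 they were 21.5%, 26.0%, 24.1% and 17.7%, against 10.7%, 10.8%, 9.01% and 5.84%. At a log2 ratio of 2 they were 10.2%, 13.4%, 15.6% and 11.1%, against 4.18%, 3.30%, 2.81% and 2.42%. Other pseudocounts, no filter, scaling to the same sum and centring on the median kept each count within a factor of 1.5. Their split moved with scaling to the same sum: higher calls became 79.5% in place of 59.4% of those past the threshold in DS(D/C) and 75.6% in place of 65.0% in DT(C)/DS(C).

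Scaling to the same sum also moved the median log2 ratio of loci without an identifier to 0.52 in DS(D/C), 0.35 in DT(C)/DS(C) and −0.19 in DT(D)/DS(D), and their median level in DS(C) to 3.25 in the rescaled unit. The median log2 ratios of loci with an identifier moved alike, to 0.45, 0.36 and −0.057. FPKM of at least 10 moved the DS(D/C) median without an identifier to −0.16. The difference of medians (without minus with an identifier) was −0.053 in DT(D/C) and 0.10 under a mean of 2 FPKM. In DS(D/C) it was 0.066, but −0.050 with FPKM of at least 10, 0.44 under a mean of 2 FPKM, −0.069 from 2 to 5, −0.077 from 5 to 20 and −0.12 from 20 to 100. In DT(C)/DS(C) it was −0.014, but −0.17 from 2 to 5 FPKM, −0.12 from 5 to 20 and 0.12 at 100 or more. In DT(D)/DS(D) it was −0.13, and −0.34 under 2 FPKM. The difference thus changed sign with level except in DT(D)/DS(D).

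Loci without an identifier at FPKM 1 or more in all 4 conditions had medians of 8.50, 9.46, 9.29 and 8.82 FPKM in DT(D), DT(C), DS(D) and DS(C). Without the 10 most abundant, they held 4.91% of the summed FPKM in DS(C). Scaling to the same sum gave 127 loci higher under drought in both genotypes (81 as reported) and 15 higher in DT and lower in DS (24). A pseudocount of 1 gave 27 and 13, and 25 lower in DT and higher in DS (57). Of the 226 loci at 0 in a condition 50 reached 10 FPKM elsewhere. Leaving out loci in runs of 16 or more, or at 0 anywhere, was chosen after seeing the data and kept the results it was tried on within the tolerance used. Of the values for loci as a set, 91 stayed within 1.5 times for counts and levels or 0.1 for log2 values, and 38 moved. Of the log2 ratios of single named loci under other pseudocounts and scalings, 53 stayed within 0.1 and 43 moved. The 0.1 exceeded the reported median log2 ratio of loci without an identifier in each comparison, and the difference of medians except in DT(D)/DS(D). A value could therefore change sign and still count as staying. The DS(D/C) difference of 0.066 became −0.013 with both conditions at FPKM 1. Outside runs of 16 or more, the DT(C)/DS(C) difference of −0.014 became −0.099. The 91 thus do not show that signs of log2 values were stable. The cause of the changes was not tested.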

Other observations

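Some long runs without an identifier came in pairs, in which the flanking identifiers of one run had numbers close to those of the other. This feature was chosen after its values were seen. The run of 57 loci from XLOC_001169 to XLOC_001225 lay between Ca_08832 and Ca_22121, and the run of 46 from XLOC_002743 to XLOC_002788 between Ca_08841 and Ca_22120. Their median mean levels, 15.01 and 20.98 FPKM, were the highest of the 15 long runs. The runs of 21 and 17 loci, at 8.52 and 11.1 FPKM, lay between Ca_23851 and Ca_20088 and between Ca_23850 and Ca_20090. Positions are not in the table, so whether such pairs adjoin on a chromosome was not examined.

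Neighbouring numbers did not go with similar drought differences beyond a weak relation. Over 1913 pairs of next-numbered expressed loci without an identifier, the log2(FPKM + 1) differences correlated with r = 0.12 in DT and 0.17 in DS, and over 12523 such pairs with identifiers with r = 0.074 in DT and 0.071 in DS. The pairs share their 4 pooled values, and no more is read from these figures.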
